A study of Mus musculus with 12 samples.

Results

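The E2F and retinoblastoma families are described here in LPS-activated mouse splenic B cells, as the 10 rows of the table of normalized counts that carry the gene names E2f1, E2f2, E2f3, E2f4, E2f5, E2f7, E2f8, Rb1, Rbl1 and Rbl2, of 29486 genes listed. All 10 had a mean level of at least 10 over the 3 conditions and were kept, among 14969 genes kept in all. The rows were found by gene name, and the list of names was drawn up with earlier results of these data known.

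E2F proteins are transcription factors that bind the promoters of genes needed for DNA replication and division. E2f1, E2f2 and E2f3 are mainly activators, E2f4 and E2f5 act mostly as repressors, and E2f7 and E2f8 are atypical members that repress without a DP partner. The pocket proteins encoded by Rb1, Rbl1 (p107) and Rbl2 (p130) bind the classical E2Fs and hold their targets down until cyclin-dependent kinases phosphorylate them. Resting B cells carry much E2f4 and p130 and little activator E2F, and mitogens such as LPS bring the activators up as the cells enter the cycle.

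Primary splenic B cells of C57BL/6Babr mice, aged 8 to 12 weeks per the methods of the study, were taken with a B cell isolation kit and cultured with LPS, a bacterial mitogen. All 3 conditions carried LPS at 10 µg/ml. Cells received LPS for 48 h (LPS, n = 4 libraries), LPS for 48 h and then etoposide at 20 µM for 4 h (LE, n = 4), or LPS for 47 h, the ATM kinase inhibitor KU55933 at 10 µM for 1 h and then etoposide at 20 µM for 4 h (LEKU, n = 4). Etoposide traps topoisomerase II on DNA and leaves double-strand breaks, and ATM is a kinase that these breaks activate. One label of LEKU spells the inhibitor KU59933. The labels do not say whether the LPS cells stayed in culture for the further 4 h, no cells received KU55933 without etoposide, and the Illumina indexes of one condition are not carried by another, so that treatment, culture time and index cannot be told apart.

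Within a condition, the ratio between libraries was identical from gene to gene, to within 2.8e-14 on the log2 scale. The deposited columns are thus the mean that DESeq2 fitted for the condition times a factor of the library, and the spread between the 4 replicates is no longer in them. Each gene therefore has 1 level a condition, the mean of the columns after division by size factors, and no difference below has a replicate error or a test. Differences are given as log2(level + 1), and a difference of more than 1.5-fold, 0.585 on the log2 scale, is counted as past the threshold. For E2f7 the deposited values were 240.1, 266.4, 277.1 and 249.7 in the LPS libraries, 607.1, 680.5, 824.2 and 659.7 in the LE libraries and 227.1, 256.1, 274.4 and 278.9 in the LEKU libraries. Within a condition these numbers differ by the library factor alone, so that their separation between LPS and LE is not a separation of replicates. The same holds for Rbl2, with 1550.0, 1719, 1788 and 1611 in LPS, 3984, 4465, 5408 and 4328 in LE, and 2895, 3265, 3498 and 3555 in LEKU. Column totals, divided by 1000000, ranged from 20.7 to 23.9 in LPS, from 22.5 to 30.6 in LE and from 20.4 to 25.1 in LEKU. If the deposited values are read as counts, counting error alone, as 1 Poisson SD, would be 0.742 to 3.11% of the summed value of a member in a condition. It leaves out the variation between cultures.

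The cells carried markers of B cells, with levels of Cd79a, Cd79b and Ms4a1 between 13520 and 30240 in every condition. Each was lower in LE than in LPS, Cd79b by 1.51-fold, and Ms4a1 was 2.24-fold lower in LEKU than in LPS. Pax5, a B cell identity factor, stood at 5345 in LPS, 1147 in LE and 1181 in LEKU. T cell markers were near 0, with sums over 6 genes of 8.39, 9.64 and 9.95 in the same order. The 6 macrophage markers summed to 403, 479 and 437, and the 5 red blood cell genes to 209, 149 and 109. Of the 5 macrophage markers kept, 2 were higher and 1 lower past 1.5-fold in LE against LPS, beside 22.6% and 13.7% of all genes. Cd14 (4.99, 24.7 and 41.1) and Cd68 (101, 216 and 177) were the higher ones. Cd14 lay below the minimum mean level of 10 in LPS and was kept only through its levels in LE and LEKU. Its count as higher thus tells nothing further. Itgam (212.5, 131.9 and 116.3) was the lower one. The part of other cells in the results on the families was not tested. In these bulk samples fewer cells of a cycling type and less RNA per cell cannot be told apart.

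With etoposide, transcripts of the families lay on both sides of their level with LPS alone. Rbl2 and E2f7 were more than 2-fold higher in LE than in LPS, E2f5 was 1.55-fold higher, E2f2, E2f4 and E2f8 were 1.52- to 1.6-fold lower, and E2f1, E2f3, Rb1 and Rbl1 stayed within 1.5-fold. Thus 3 of 10 members were higher past the threshold, beside 22.6% of all genes kept, and 3 of 10 were lower, beside 13.7%. The median difference of the members was -0.04 on the log2 scale, against 0.05 for all genes kept, and their median size without sign was 0.62 against 0.40. With KU55933 added before etoposide, 9 of 10 members were lower than with etoposide alone: E2f7, E2f8 and E2f3 were lower past the threshold, beside 11.0% of all genes, and 0 of 10 was higher past it, beside 6.79%. The median of the members was -0.36 in LEKU against LE and that of all genes -0.05. Most genes kept thus also had a lower level in LEKU than in LE. Against LPS, LEKU left Rbl2 higher past the threshold, beside 21.5% of genes, and E2f2, E2f3 and E2f8 lower past it, beside 13.4%. The 3 comparisons share conditions pairwise and are not independent.

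**Figure D1:**
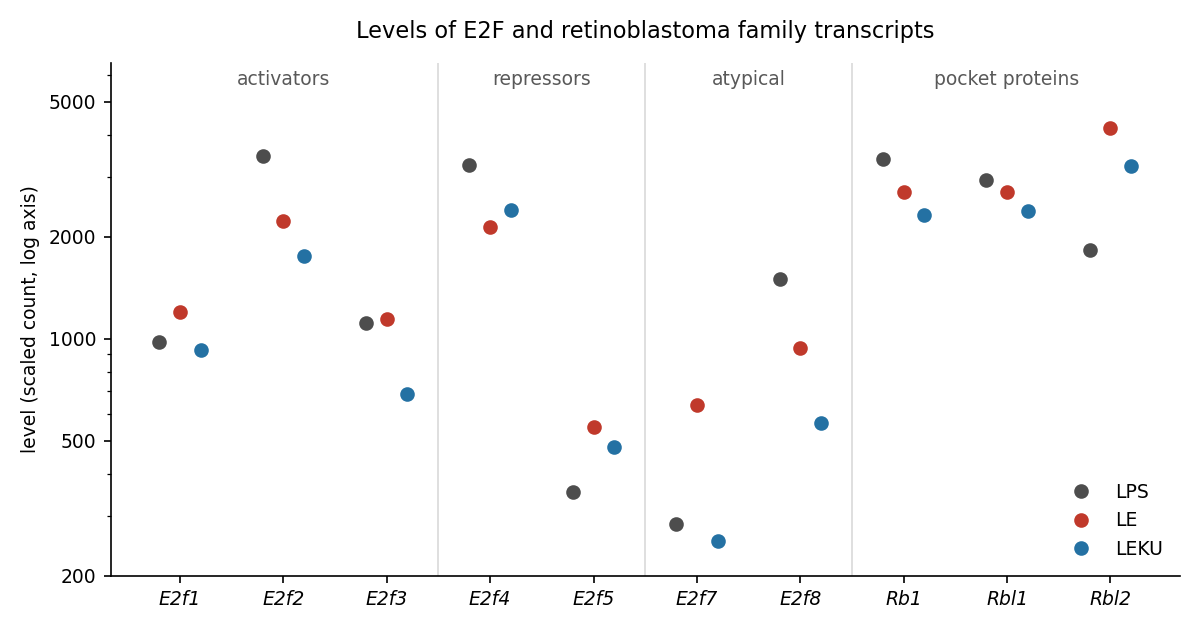
Level of each of the 10 transcripts (scaled count, log axis) in LPS (grey), LE (red) and LEKU (blue), 1 fitted value a condition with no replicate error. Rbl2 and E2f7 stand more than 2-fold higher in LE than in LPS, and E2f5, E2f1 and, by little, E2f3 are also highest in LE. E2f8, E2f2, Rb1 and Rbl1 step down from LPS to LE to LEKU, and E2f4 is lowest in LE.

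The share of genes higher or lower depended on the scaling. Of all genes past 1.5-fold in LE against LPS, 62.3% were higher with median-of-ratios factors, 66.4% when scaled by library totals, 50.5% by TMM and 44.3% by quantile normalization. In LEKU against LPS the share was 61.6%, 71.0%, 52.3% and 49.3% in the same order of scalings, and in LEKU against LE 38.1%, 46.5%, 44.2% and 50.2%. TMM factors moved the median of all genes in LE against LPS from 0.05 to -0.09 on the log2 scale, and library totals moved it in LEKU against LPS from 0.08 to 0.18. A scaling factor adds nearly the same amount to each log2 difference and leaves the order of the members as it is, which quantile normalization need not do.

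Among the activators, E2f1 and E2f2 came closer to each other with etoposide. E2f1 (ENSMUSG00000027490, chr2:154559407-154569892, minus strand, GRCm38) was at a level of 976 in LPS, 1201 in LE and 927 in LEKU. Its log2 difference was 0.30 in LE against LPS and -0.37 in LEKU against LE, both within 1.5-fold, and that of LEKU against LPS was -0.08 and changed sign with library totals. E2f2 (chr4:136172394-136196057, plus strand), the activator with the highest level in LPS, was at 3453 in LPS, 2226 in LE and 1753 in LEKU. It was 1.55-fold lower in LE than in LPS and 1.97-fold lower in LEKU than in LPS, and 5.28% of the genes kept had a lower value in the latter comparison. E2f3 (chr13:29906575-29986063, minus strand) was at 1116 in LPS and 1144 in LE, a difference of 0.04 that changed sign with 3 of 4 other scalings. In LEKU it was at 689, 1.66-fold below LE and 1.62-fold below LPS. Per kilobase of exon, the unit in which levels of different genes are compared here, E2f1 made up 25.3% of the activators in LPS, 36.3% in LE and 37.7% in LEKU, and E2f2 57.9%, 43.5% and 46.0%. The ratio of E2f1 to E2f2 per kilobase was 0.438, 0.835 and 0.818, a quantity on which library scaling has no bearing.

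Of the repressors, E2f4 was the most abundant of the 10 members per kilobase in all 3 conditions. E2f4 (chr8:105297663-105305370, plus strand) was at a level of 3262 in LPS, 2142 in LE and 2401 in LEKU, 1.52-fold lower in LE than in LPS. It was the one member with a higher level in LEKU than in LE, by 0.165 on the log2 scale. E2f5 (chr3:14578641-14606309, plus strand) was at 354 in LPS, 549 in LE and 479.8 in LEKU, 1.55-fold higher in LE than in LPS and 1.36-fold higher in LEKU than in LPS. In LE against LPS the pair lay in opposite directions, and E2f5 was 13.0% of their sum per kilobase in LPS, 26.1% in LE and 21.6% in LEKU. Within the 7 E2Fs among the members, which leave out E2f6, E2f4 held 43.5%, 35.3% and 45.3% of the level per kilobase.

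The atypical pair lay in opposite directions with etoposide. E2f7 (chr10:110745439-110787384, plus strand), which p53 is known to activate and which represses E2F targets, was at a level of 283 in LPS, 639 in LE and 253 in LEKU. It was 2.25-fold higher in LE than in LPS and 2.51-fold lower in LEKU than in LE, the largest difference of a member in the latter comparison, and 2.01% of genes kept had a lower value there. Its level in LEKU was within 1.5-fold of LPS, at a log2 difference of -0.16. E2f8 (chr7:48866429-48881596, minus strand), which shares targets and the ability to pair with E2f7, was at 1502 in LPS, 938 in LE and 563 in LEKU. It was thus lower in both steps, by 1.6-fold and 1.66-fold, and 2.66-fold lower in LEKU than in LPS, where 1.95% of genes had a lower value. The ratio of E2f7 to E2f8 per kilobase was 0.114 in LPS, 0.412 in LE and 0.272 in LEKU, so that E2f8 remained the more abundant throughout.

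**Figure D2:**
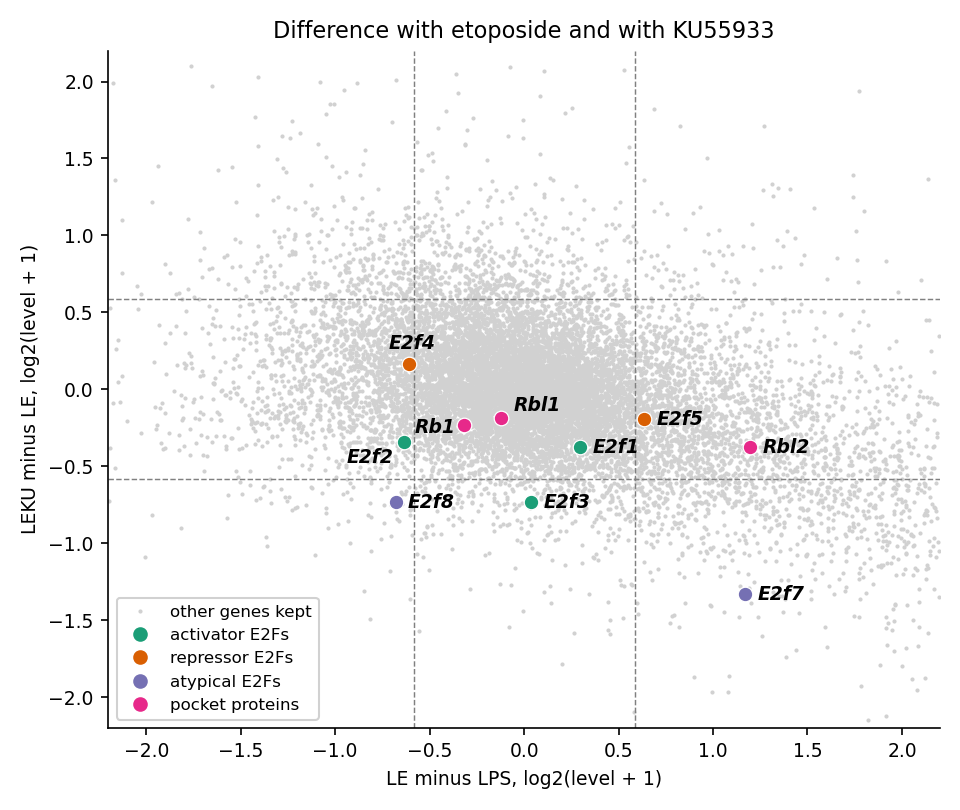
Log2 difference of LE against LPS (x axis) and of LEKU against LE (y axis) for the 10 members, coloured by family, over the other genes kept (grey), with dashed lines at 1.5-fold. The 2 axes share the LE level, so that error in it would slope the cloud downward; 728 of 14969 genes lie outside the axes. Among the members E2f7 lies alone at the lower right, where other genes kept also lie. Rbl2 is to the right within 1.5-fold on the y axis, and E2f8 is past the line on both axes.

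Rbl2 was higher with etoposide and the other pocket proteins were not. Rbl2 (chr8:91070057-91123844, plus strand), whose product p130 is the pocket protein of the DREAM complex in cells out of cycle, was at a level of 1828 in LPS, 4191 in LE and 3231 in LEKU. It was 2.29-fold higher in LE than in LPS, the largest difference of a member in that comparison, where 88.3% of the genes kept had a lower value. In LEKU it was 1.3-fold below LE and still 1.77-fold above LPS. Rb1 (chr14:73183673-73325822, minus strand), the retinoblastoma tumour suppressor, was at 3388, 2719 and 2312 in LPS, LE and LEKU, and Rbl1 (chr2:157145893-157204534, minus strand) at 2944, 2702 and 2379. Both were within 1.5-fold in every comparison, the furthest being Rb1 in LEKU against LPS at -0.55, which passes the threshold with TMM factors (-0.65) and the upper quartile (-0.61). In LPS Rbl2 was 18.7% of the 3 pocket proteins per kilobase, Rb1 43.4% and Rbl1 37.9%. In LE the shares were 38.0%, 31.0% and 30.9% and in LEKU 35.4%, 31.8% and 32.8%, with Rbl2 the largest of the 3 in both. The ratio of Rbl2 to Rb1 per kilobase was 0.429 in LPS, 1.23 in LE and 1.11 in LEKU.

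**Figure D3:**
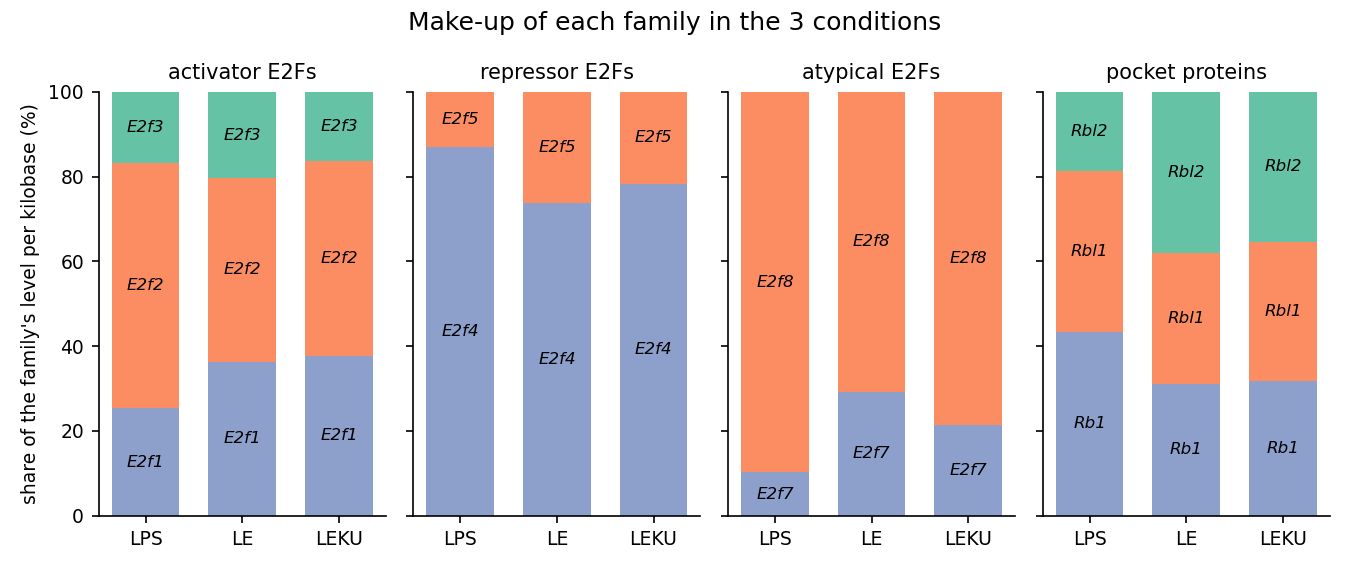
Share of each gene in the summed level per kilobase of its family (%), for the 4 families in LPS, LE and LEKU, 1 value a condition. The shares are free of library scaling: Rbl2 is 18.7% of the pocket proteins in LPS and 38.0% in LE, E2f7 10.2% and 29.2% of the atypical pair, and E2f5 13.0% and 26.1% of the repressors.

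Summed per kilobase and without E2f6, the 7 E2Fs among the members stood at 3058 in LPS, 2472 in LE and 2160 in LEKU. The log2 difference was -0.31 and then -0.20. The activators were at 1222, 1047 and 780, the repressors at 1528, 1181 and 1248, the atypical pair at 307, 243 and 132, and the pocket proteins at 1296, 1457 and 1209. The order of the 10 genes per kilobase in LPS was E2f4 (1330), E2f2 (707), Rb1 (563), Rbl1 (491), E2f1 (309.6), E2f8 (276), Rbl2 (242), E2f3 (206), E2f5 (198) and E2f7 (31.4). In LE Rbl2 stood in the second place at 554.5, followed by E2f2, Rb1 and Rbl1 between 451 and 456 and by E2f1 at 381, and E2f7 was again the lowest at 70.9. In LEKU Rbl2 was again the second at 428, and Rbl1 (397), Rb1 (384.5) and E2f2 (359) followed. With no spread over replicates, neighbours such as E2f3 and E2f5 in LPS, or E2f2, Rb1 and Rbl1 in LE, cannot be ordered beyond error. Exonic length was counted over all transcripts of a gene in GENCODE M21, 9.01 kb for E2f7. With the longest coding transcript instead, a length chosen after the data were seen, E2f1 went from the fifth to the seventh place in LPS and E2f2 from the third to the fifth in LE, while E2f4 stayed the highest and E2f7 the lowest in each condition.

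Exons of 5 members overlap a gene on the other strand in GENCODE M21. The libraries were made with a stranded kit per the methods of the study, and the strand setting of the counting is not given in the sources used here. For Rbl2 the 693 shared bases belong to Aktip, whose level was 289 in LPS, 313.5 in LE and 491.5 in LEKU, below that of Rbl2 in each condition. A further 892 bases belong to Gm45464, not analysed here. Rb1 shares 408 bases with Lpar6 (297, 651 and 709) and 488 with Rcbtb2 (667, 555 and 595). E2f8 shares 610 bases with Gm2788 (12.6, 8.89 and 7.94), E2f7 86 with 1700020G17Rik, at levels of 0.602 or less, and E2f5 26 with 1810022K09Rik (890, 734 and 707.5, above E2f5). The part of these genes in the values of the members was not tested.

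RefSeq promoters, 250 bases before to 50 after a transcript start on GRCm38.p6, were at hand for 7 of the 10 members, 9 promoters in all: E2f1, E2f2, E2f3, E2f7, E2f8, Rbl1 and Rbl2. They were searched on both strands for 2 E2F motifs, TTCCCGC and TTGGCGC, and for the cell cycle homology region through which MuvB complexes bind, as TTTGAA and TTCGAA. Of all 32851 promoters 4.6% held TTCCCGC, 2.45% TTGGCGC, 17.9% TTTGAA and 1.56% TTCGAA. Promoters are shown for the 4 members that were past 1.5-fold under every scaling in LE against LPS or in LEKU against LE, for the part upstream of the start, 5′ to 3′ on the strand of the gene, with motif matches in capitals. No 2 matches overlap.
E2f7, chr10:110745189-110745438, plus strand: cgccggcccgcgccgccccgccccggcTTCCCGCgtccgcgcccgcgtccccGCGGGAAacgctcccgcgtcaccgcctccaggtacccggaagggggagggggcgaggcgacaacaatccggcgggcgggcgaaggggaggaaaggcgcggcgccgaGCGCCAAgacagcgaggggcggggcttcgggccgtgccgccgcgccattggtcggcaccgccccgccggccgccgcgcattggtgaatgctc
E2f8, chr7:48881597-48881846, minus strand: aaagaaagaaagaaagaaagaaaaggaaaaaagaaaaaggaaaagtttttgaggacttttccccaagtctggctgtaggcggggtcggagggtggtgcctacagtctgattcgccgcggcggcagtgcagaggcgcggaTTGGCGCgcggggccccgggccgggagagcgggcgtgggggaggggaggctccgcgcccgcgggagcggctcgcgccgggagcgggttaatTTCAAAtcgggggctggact
E2f3, chr13:29986064-29986313, minus strand: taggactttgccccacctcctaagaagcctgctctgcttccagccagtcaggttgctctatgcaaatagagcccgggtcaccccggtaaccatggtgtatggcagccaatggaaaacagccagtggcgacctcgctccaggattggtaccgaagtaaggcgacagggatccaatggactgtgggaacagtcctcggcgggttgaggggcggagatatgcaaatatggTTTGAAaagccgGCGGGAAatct
Rbl2, chr8:91069807-91070056, plus strand: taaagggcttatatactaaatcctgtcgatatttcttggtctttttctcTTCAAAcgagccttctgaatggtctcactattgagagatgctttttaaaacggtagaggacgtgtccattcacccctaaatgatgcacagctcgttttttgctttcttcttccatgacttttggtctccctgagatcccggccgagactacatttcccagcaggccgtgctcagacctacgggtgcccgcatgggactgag

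The 3 E2F matches of E2f7 begin 223, 198 and 92 bases before the start, 2 of them TTCCCGC on opposite strands and the one nearest the start TTGGCGC, and no TTTGAA or TTCGAA is in the window. E2f8 holds TTGGCGC 111 bases and TTTGAA, on the other strand, 20 bases before the start. E2f3 holds TTTGAA 23 bases and TTCCCGC 11 bases before the start, and TTGGCGC at base 19 after it, outside the stretch shown. Rbl2 holds TTTGAA 201 bases before the start and no E2F match. These 4 starts coincide with the start of the gene in GENCODE. The E2f1 promoter, with no match, lies 466 bases inside the gene. Of the 2 promoters of E2f2, the one 120 bases upstream of the gene holds TTGGCGC. The other, 8388 bases inside the gene, holds TTTGAA, and E2f2 enters the TTTGAA count through it alone. In all, 4 of 7 members with a promoter held an E2F match, against 7.79% of all genes with a promoter, and 4 of 7 a TTTGAA match, against 20.2%. A match is a description of letters and not of binding.

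E2F proteins act with DP partners. Tfdp1, the main one, was at a level of 5711 in LPS, 6567 in LE and 4005 in LEKU, 1.64-fold lower in LEKU than in LE. Tfdp2 was at 721, 905 and 925.5, and E2f6, a repressor that does not bind pocket proteins, at 681, 650.4 and 494.5. None of the 3 passed 1.5-fold in LE against LPS, beside 22.6% of all genes higher and 13.7% lower, and their median there was 0.20.

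Of the 8 genes of the MuvB core and its partners, 0 was higher and 2 were lower past 1.5-fold in LE against LPS. Of all genes kept 22.6% were higher and 13.7% lower, and the median of the 8 was -0.26. The lowest were Foxm1 (2301 in LPS, 1178 in LE) and Mybl2 (4864 and 2773), factors that join MuvB to switch on mitotic genes. The core subunits Lin9, Lin37, Lin52, Lin54 and Rbbp4 were within 1.5-fold in each comparison. In LEKU against LE 0 of 8 passed the threshold, beside 6.79% of all genes higher and 11.0% lower. The highest were Lin37 at 0.45 and Lin54 at 0.17 and the lowest Foxm1 at -0.38 and Dyrk1a at -0.37. In LEKU against LPS 3 of 8 were lower past the threshold, beside 13.4% of all genes. They were Foxm1 (-1.34), Mybl2 (-0.95) and Dyrk1a (-0.81), the last a kinase that assembles DREAM.

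Of the 9 cyclins and kinases that phosphorylate pocket proteins, 5 were lower and 2 higher past the threshold in LE against LPS. Of all genes kept 13.7% were lower and 22.6% higher, and the median of the 9 was -0.61. Cyclin D3, from Ccnd3, was at 2618 in LPS, 1116 in LE and 1324 in LEKU, and Cdk6 at 660.3, 322 and 172. Ccnd2, another cyclin D gene, was at 17360, 19370 and 18730. The higher ones were Ccnd1, at a low level of 14.7 and 42.3 in LPS and LE, and Ccne2, at 547 in LPS, 856 in LE and 429.9 in LEKU. In LEKU against LE 3 of 9 were lower past the threshold and 0 higher, beside 11.0% and 6.79% of all genes. The lowest were Ccne2 (-0.99) and Cdk6 (-0.90). Of the CDK inhibitors, 6 of 7 were kept, and 3 were higher and 2 lower in LE against LPS, beside 22.6% and 13.7% of all genes. Cdkn1a, which encodes p21, was at 397 in LPS, 13750 in LE and 10920 in LEKU, and Cdkn2b at 70.03, 203 and 78.1. Cdkn2d (523, 158 and 239) and Cdkn1b (4059, 2531 and 4276) were the lower ones past 1.5-fold, and both were higher in LEKU than in LE, Cdkn1b by 1.69-fold and Cdkn2d by 1.51-fold. The lowest in LEKU against LE were Cdkn2b (-1.36) and Cdkn2c (-1.11).

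Of 24 E2F targets of G1 and S phase, 3 were higher, 4 lower and 17 within 1.5-fold in LE against LPS, beside 22.6% of all genes higher and 13.7% lower, with a median of -0.24. The extremes were Msh6 (4037 in LPS, 9741 in LE and 6257 in LEKU) and Rrm2 (5754, 9747 and 5071) above, and Pola1 (2836, 1275 and 1004) and Ung (795.5, 408 and 342) below. In LEKU against LE 22 of 24 had a lower level, 5 of them past the threshold, beside 11.0% of all genes. The median of the 24 was -0.45, against -0.05 for all genes kept. Rrm2 (-0.94) and Msh6 (-0.64) were the lowest, and Cdt1 (0.17) and Tk1 (0.09) lay above 0. Beside 13.4% of all genes lower, 15 of 24 were lower past the threshold in LEKU against LPS and 1, Msh6, higher. Of 12 DREAM targets of G2 and mitosis, 8 were lower past the threshold in LE against LPS and 12 in LEKU against LPS, with medians of -1.40 and -1.77. Plk1 was at 2829, 412 and 328 in the 3 conditions and Ccnb1 at 3754, 1076 and 832. In LEKU against LE the 12 had a median of -0.56, led by Cdc20 (-1.30) and Cenpe (-0.85).

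The 8 p53 targets other than Cdkn1a were all higher past the threshold in LE against LPS, beside 22.6% of all genes kept. Their median, Eda2r included, was 3.06. They were led by Phlda3 (104 in LPS, 3275 in LE) and Eda2r (3.73 and 127). Eda2r lay below the minimum mean level in LPS and was kept only through its levels in LE and LEKU (54.5). A higher level with etoposide was thus a condition of keeping Eda2r, and its count as higher tells nothing further. The other targets of the list stood above that minimum in LPS. In LEKU against LE 5 of 8 were lower past the threshold, beside 11.0% of all genes. The median of the 8 was -0.62, against -1.33 for E2f7 and -0.38 for Rbl2, the members with the highest values in LE against LPS. The lowest were Eda2r (-1.20) and Mdm2 (-0.82), and Bbc3, at 2187 in LE and 2776 in LEKU, was the one with a higher level in LEKU (0.34).

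**Figure D4:**
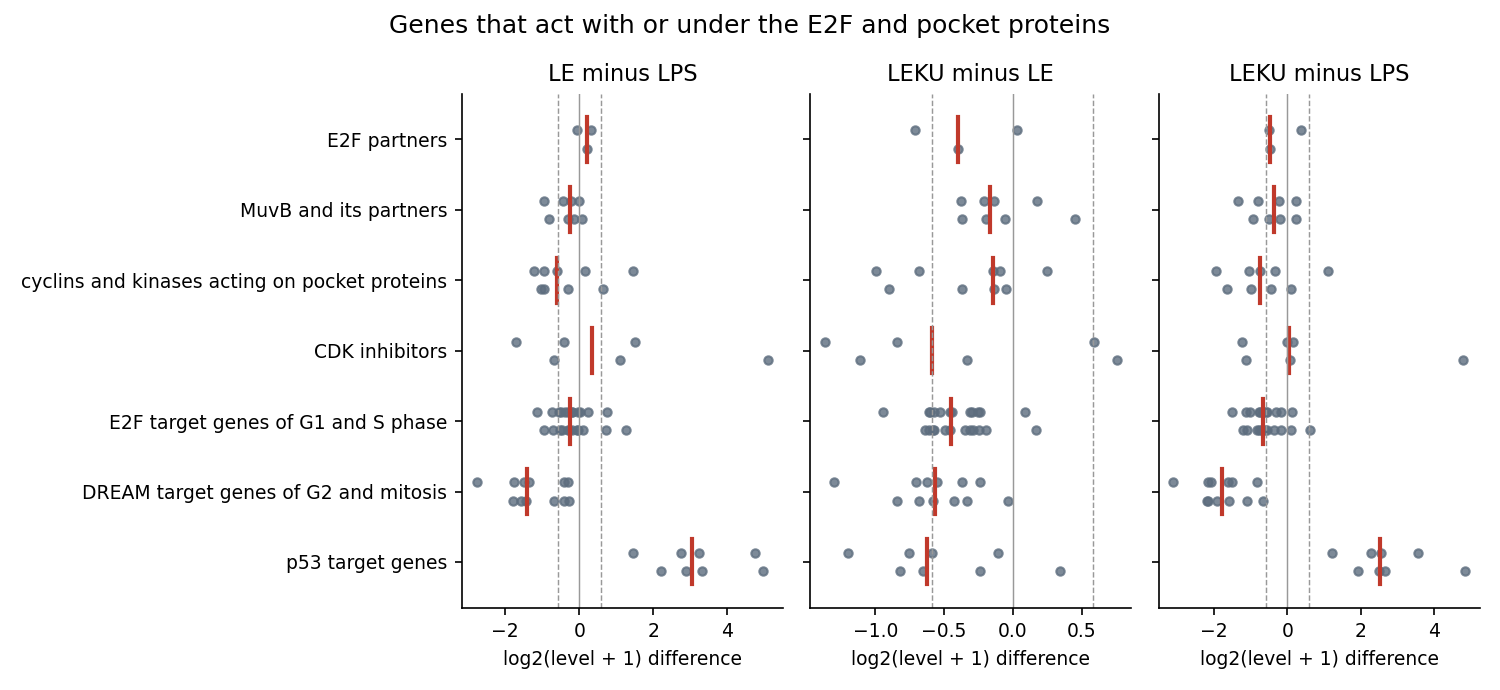
Log2 differences in the 3 comparisons for genes of 7 lists that act with or under the families, 1 point a gene, with red bars at the median of a list and dashed lines at 1.5-fold; the 3 panels have different x axes. The DREAM targets lie to the left in each panel, all 12 past the line in LEKU minus LPS, and the p53 targets to the right in the panels against LPS.

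The genes whose pair of differences (LE against LPS, LEKU against LE) lay nearest to that of E2f1, by Euclidean distance over 10874 genes with a mean level of at least 100, were Igkv1-88 (0.0025), St6galnac4 (0.0064) and Appl1 (0.012). For Rb1 they were Atrnl1 (0.0098), Prrc2c (0.012) and Psmb8 (0.015). Distances rest on 3 conditions, and 116 genes lay within 0.1 of E2f1 and 187 within 0.1 of Rb1.

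Which members are past 1.5-fold in LE against LPS depended on the scaling for 3 of the 6. E2f5 was within it with TMM factors (0.49), the upper quartile (0.55) and quantile normalization (0.51), E2f4 with library totals (-0.56) and quantile normalization (-0.55), and E2f2 with quantile normalization (-0.57). Rbl2 lay between 1.06 and 1.24, E2f7 between 1.03 and 1.22 and E2f8 between -0.82 and -0.63 over the 5 scalings.

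**Figure D5:**
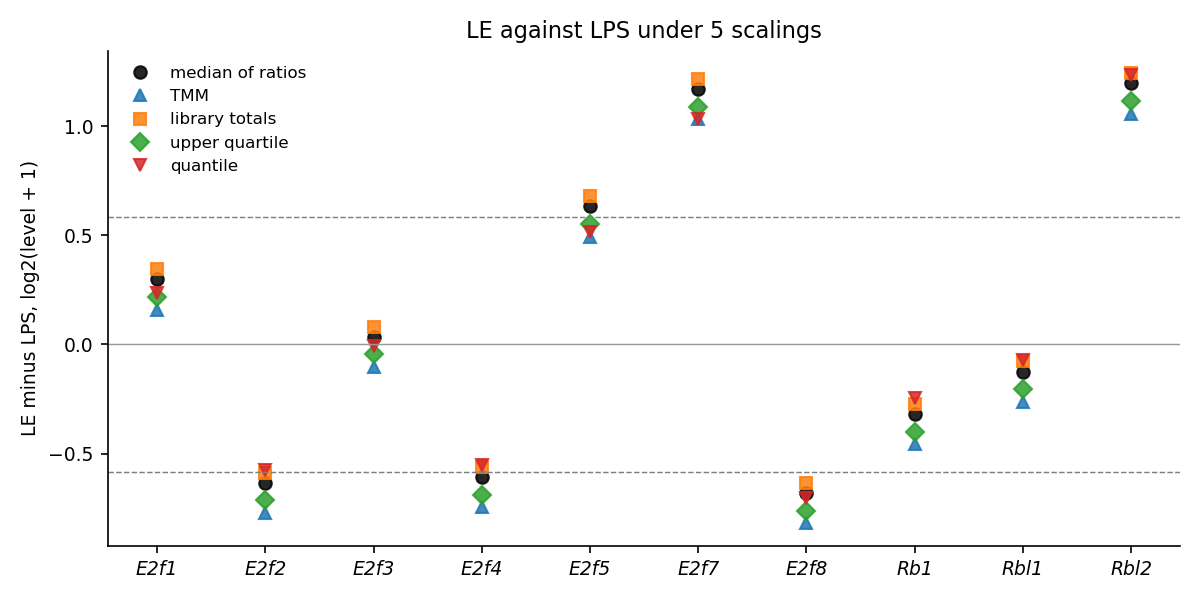
Log2 difference of LE against LPS for the 10 members under 5 scalings of the libraries, with dashed lines at 1.5-fold. Rbl2, E2f7 and E2f8 lie past the lines with each scaling, E2f2, E2f4 and E2f5 cross them, and E2f3 crosses 0.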

How the data were processed

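Messenger RNA of 12 libraries was sequenced with an Illumina TruSeq stranded kit. The authors trimmed reads with Trim Galore and cutadapt 1.2.1, mapped them to GRCm38 with TopHat2 2.0.12, counted them with HTSeq on Ensembl 78 genes and fitted DESeq2 1.6.3, with versions from the submitters' processing notes. As deposited, the values are a signal in each library, namely the mean fitted for its condition times a library factor. The DESeq2 version of the authors moderates fold changes by default, which would understate them most at low counts. The deposited comparisons hold fold changes, standard errors and p-values of the authors and were not used.

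Columns were divided by median-of-ratios factors over genes with a mean above 100, averaged within a condition and compared as log2(level + 1). Genes with a mean of at least 10 were kept. Work was in Python 3.11.15 with numpy 2.4.6, pandas 2.3.3 and matplotlib 3.10.9, tested on simulated data. The members and lists were chosen with earlier results of these data known. Named genes were the members, of each list the 2 largest differences each way in LE against LPS and LEKU against LE, and the 3 genes nearest to E2f1 and Rb1. Ccnd2, the MuvB core, marker genes and the genes overlapping a member were named in addition, after their values were seen. The result for a B cell marker is not reported here. Groups follow the labels. Alternatives were TMM factors, library totals, upper quartile, quantile normalization, pseudocounts of 0.5 and 5, a 2-fold threshold, no filter and a minimum of 50. Depth is known only from the column totals.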

Additional observations from a re-analysis of the deposited data

How the results depend on the processing

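No paired analysis was possible because the columns of a condition differ only by a constant, and for the same reason leaving out each replicate in turn was not run. Over the 4 other scalings and 2 other pseudocounts, 26 of 30 differences of members stayed on their side of 1.5-fold and none past it changed sign. Quantile normalization left 3 of 10 members past 1.5-fold in LE against LPS, in place of 6, E2f2, E2f4 and E2f5 having been near it. A 2-fold threshold left 2 members in LE against LPS, in place of 6, 1 in LEKU against LE, in place of 3, and 1 in LEKU against LPS, in place of 4, and over all genes kept 2848, 844 and 2496 genes, in place of 5438, 2664 and 5225. Without a filter the 3 counts were 7527, 3807 and 6849 of 29486 genes, and with a minimum of 50 they were 3922, 1789 and 3802 of 11983. Scaling sets which of E2f2, E2f4, E2f5 and Rb1 pass 1.5-fold, and leaves ratios between members as they are, except under quantile normalization. Without values per replicate no difference can be set against the variation between cultures.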

Other observations

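Promoters of the gene lists differed in the motifs they held. An E2F motif (TTCCCGC or TTGGCGC) stood in the promoter of 11 of 21 E2F targets of G1 and S phase, 52.4%, and of 2 of 11 DREAM targets of G2 and mitosis, 18.2%, against 7.79% of all genes with a RefSeq promoter. A cell cycle homology region (TTTGAA or TTCGAA) stood in 8 of 11 DREAM targets, 72.7%, and in 3 of 21 of the first list, 14.3%, against 21.7% of all genes. The lists were written from known functions of the genes, so that the shares describe them and carry no test.

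Among the 4 genes for inhibitors of Cdk4 and Cdk6, levels lay in both directions with etoposide. Cdkn2c stood at 514 in LPS, 1102 in LE and 511 in LEKU, and Cdkn2b at 70.03, 203 and 78.1. Cdkn2d was at 523, 158 and 239 and Cdkn2a at 168, 127 and 70.3. Cdkn2d was 3.29-fold lower in LE than in LPS, and Cdkn2a 1.32-fold lower, within the threshold.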
